A study of Mus musculus with 4 samples.

Results

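The respiratory chain and ATP synthase genes were described here in area CA1 of the mouse hippocampus, across 4 handled control samples. The members were all non-control probe sets whose only annotated gene symbol starts with Nduf (complex I), Uqcr (complex III), Atp5 (complex V) or Cox followed by 4, 5, 6, 7 or 8 (complex IV), or is Sdha, Sdhb, Sdhc, Sdhd (complex II), Cyc1 (complex III) or Cycs (cytochrome c). The choice used names and no measured value. It took 101 of 12422 probe sets, and these stand for 73 genes of the 8251 that had a probe set with 1 symbol. Complex I held 42 of the probe sets, complex II 4, complex III 9, complex IV 23, complex V 22 and cytochrome c 1. A few members are assembly factors and not subunits: Ndufaf1 and Ndufaf4 for complex I, and Cox7a2l, which takes part in joining complexes into supercomplexes.

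The samples came from young male mice of the inbred strain C57BL/6J. Handling was their sole treatment, so all 4 samples form 1 group. They were taken 1, 2, 4 and 6 hours after the final shock of other mice, which are not analysed here, with 1 sample for each time. The number of mice behind a sample is not stated in the labels, and time, animal, dissection and array cannot be told apart.

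Oxidative phosphorylation makes most of the ATP of a neuron. Complexes I and II pass electrons from NADH and succinate to ubiquinone, complex III passes them on to cytochrome c, and complex IV hands them to oxygen. Complexes I, III and IV pump protons across the inner mitochondrial membrane, and the ATP synthase, complex V, lets the protons return and makes ATP. The members are encoded in the nucleus, while a small set of other subunits of complexes I, III, IV and V is encoded by mitochondrial DNA. Neurons spend much of this ATP on restoring ion gradients after electrical activity, and some subunits have tissue-specific isoforms, such as those of heart and skeletal muscle.

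Values below are deposited signals, linear intensities in arbitrary units, listed for the 1-, 2-, 4- and 6-hour samples in that order. Differences and ranges are on the log2 scale after quantile normalization of the arrays, so they can depart a little from ratios of the deposited signals. A range is the highest minus the lowest of the samples, and a 1-hour difference is the 1-hour value minus the mean of the other 3 (given with the SD of those 3). Signals of different probe sets depend on their probes and were not compared with each other as transcript levels. The number of arrays limits the precision. Tests took probe sets whose log2 values averaged 6.71 or more, a signal of 105, which kept 76 member probe sets of 65 genes and 7453 probe sets in all.

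The 1-hour sample stood apart from the others in the state of its RNA. The 3' over 5' signal ratio of the Gapdh control probe sets was 4.52 there and 1.18, 1.37 and 1.2 in the 2-, 4- and 6-hour samples, and that of beta-actin was 2.34 against 2, 1.8 and 1.76. Each cell type marker was read from 1 probe set, the one of its gene with the highest mean. All 7 neuronal markers on the list (Snap25, Syt1, Eno2, Nefl, Nefm, Map2 and Stmn2) were tested, and the sum of their signals was 29393, 32980, 29952 and 33924. Most of that sum was Snap25. Of these 7, 2 were higher in the 1-hour sample than the mean of the others, with a median 1-hour difference of -0.58. The higher ones were Nefm (0.59) and, barely, Snap25 (0.00). Map2 had 25.4, 338, 103 and 268 (-2.59, below the floor at 1 hour), and Syt1 had 1092, 2216, 1592 and 2452 (-0.89). The 4 choroid plexus markers summed to 3203 in the 1-hour sample and to 895 to 1208 in the others, and most of that sum was Ttr, with 2246, 199, 353 and 143. Of the rest of that list, Calml4 had 228, 62.8, 86.5 and 142, Kl 263, 175, 172 and 252, and Igfbp2 465, 531, 597 and 358 (1-hour difference 0.00). The median 1-hour difference was -0.46 over 4 tested microglial markers (summed signals of the list 3696, 4105, 5077 and 4340), 0.34 over 5 endothelial markers (2261, 1992, 1793 and 1268), and -0.10 over 4 astrocyte markers and over 4 oligodendrocyte markers. Among the last, Mag had 487, 958, 1285 and 1478 (-1.27). Of 5 muscle markers, Acta1 and Ckm passed the filter, Mb and Tnnt3 did not, and Myh1 lay below the floor of 35.1 in every sample. The part of these differences in the results below was not tested. Fewer cells of a type and less RNA per cell cannot be told apart in such bulk samples.

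Most members varied little between samples. Of the 76 tested member probe sets, 3 (3.95%) spanned 1 log2 unit or more over the 4 samples, namely Atp5k (1.14), Ndufa9 (1.02) and Uqcrc1 (1.02), against 17.9% of all tested probe sets. Over the 2-, 4- and 6-hour samples 0 members spanned that much, against 9.04% of all. The median range over 4 samples was 0.43 in the members and 0.56 in all tested probe sets, and the median SD over 4 samples was 0.19 and 0.25. These shares are a description and moved with signal strength. Of the 27 members with a mean signal of 4096 or more, 0 reached that range, against 5.29% of all tested probe sets of that class. In the class from 1024 to below 4096 it was 2 of 25 members (8%) against 5.06% of all, and below 1024 it was 1 of 24 members (4.17%) against 22% of all. The median range was close within the bright classes, at 0.34 for members and 0.33 for all at 4096 or more, and at 0.43 and 0.41 in the middle class. With no filter on low values, 18 of 101 members (17.8%) and 27.6% of all 12422 probe sets spanned 1 log2 unit.

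**Figure D1:**
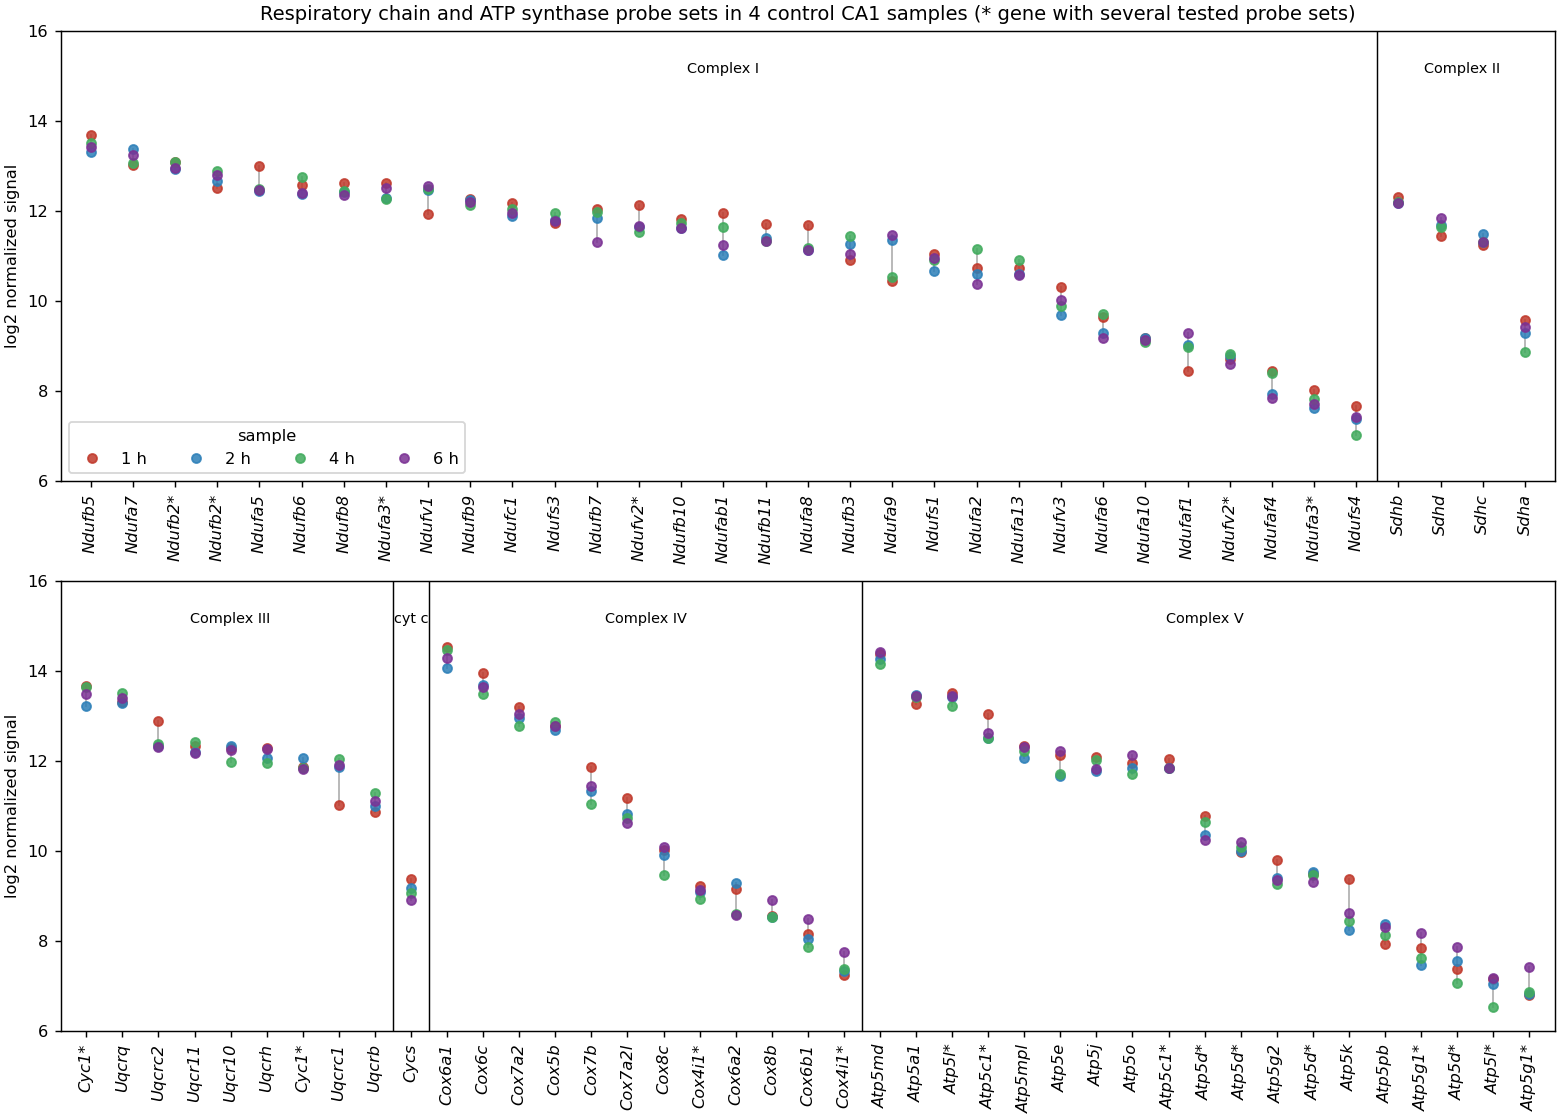
Each column is a tested probe set, grouped by complex and ordered by its mean, and each point is the log2 normalized signal (y axis) in 1 of the 4 samples, joined by a grey line from lowest to highest. Most columns are short, with a median length of 0.43, and the longest are Atp5k, Ndufa9 and Uqcrc1.

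No member was called over time. The linear fit from 1 to 6 hours (limma, Benjamini-Hochberg over all tested probe sets) called 0 of 76 members, where the background is 0% (0 of 7453). The smallest adjusted p of a member was 0.74. At an unadjusted p under 0.05 there were 2 members, and 6.24% of all tested probe sets. Without the 2-hour sample 10 members had such a p, and the fit called 0 members and 3 of all tested probe sets. The share of all tested probe sets with such a p was not counted for that setting.

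The largest departures of members lay in the 1-hour sample. The median 1-hour difference was 0.15 in the members (1.11-fold; quartiles -0.05 and 0.33) and 0.05 in all tested probe sets (quartiles -0.25 and 0.31). In 55 of 76 members (72.4%) the 1-hour value was above the mean of the other 3, against 54.7% of all tested probe sets. It was above all other 3 in 38 members, where the background is 34.9%, and below all other 3 in 16, where the background is 29.1%. The fit of the 1-hour sample against the other 3 describes 1 array, which is assumed to vary like the others. It called 0 members higher, where 0.242% of all tested probe sets were called, and 1 member lower, Uqcrc1, where 2.11% were called. At an unadjusted p under 0.05 it had 15 members, and 15.8% of all.

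**Figure D2:**
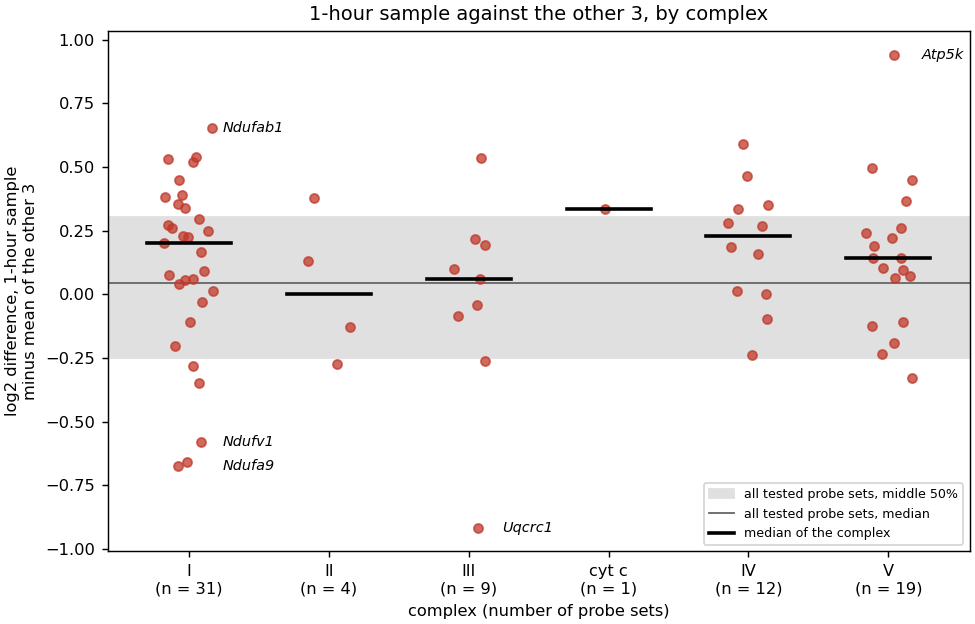
Points are tested member probe sets by complex (x axis), with the 1-hour log2 value minus the mean of the other 3 on the y axis; black bars are the medians of the complexes, and the grey band and line are the quartiles and median of all tested probe sets. The medians are 0.20 for complex I, 0.23 for complex IV and 0.14 for complex V, and Uqcrc1 lies lowest at -0.92.

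Genes of the respiratory chain are textbook targets of nuclear respiratory factor 1 (NRF1) and of the ETS factor GABP, and the start regions of the members were therefore read. The RefSeq windows of build GRCm38.p6 run from 250 bases before to 50 after a gene's start, and 59 of the 73 genes had one. The windows of the 3 members with the widest range are shown, beside that of Cycs, the cytochrome c gene, whose promoter is a classical NRF1 target. Capitals mark the NRF1 core letters (GCATGCGC or its reverse GCGCATGC, which join to GCGCATGCGC where they overlap), the ETS letters (CCGGAAG, reverse CTTCCGG) and the YY1 letters (AAGATGGCG). Cycs lies on the minus strand (chr6:50566520-50566819), Uqcrc1 on the plus strand (chr9:108936398-108936697), Atp5k on the minus strand (chr5:108434350-108434649) and Ndufa9 on the minus strand (chr6:126849095-126849394).
Cycs: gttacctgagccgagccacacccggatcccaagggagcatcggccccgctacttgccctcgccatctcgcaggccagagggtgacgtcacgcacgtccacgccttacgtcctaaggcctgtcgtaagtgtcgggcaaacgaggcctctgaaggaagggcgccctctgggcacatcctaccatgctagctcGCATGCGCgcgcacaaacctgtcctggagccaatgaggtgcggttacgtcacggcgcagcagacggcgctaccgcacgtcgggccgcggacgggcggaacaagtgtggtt
Uqcrc1: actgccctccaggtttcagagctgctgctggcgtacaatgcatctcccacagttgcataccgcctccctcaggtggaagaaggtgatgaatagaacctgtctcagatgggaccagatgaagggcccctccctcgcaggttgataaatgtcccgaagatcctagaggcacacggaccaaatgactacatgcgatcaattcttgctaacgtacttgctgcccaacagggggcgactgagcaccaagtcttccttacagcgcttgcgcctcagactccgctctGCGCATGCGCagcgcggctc
Atp5k: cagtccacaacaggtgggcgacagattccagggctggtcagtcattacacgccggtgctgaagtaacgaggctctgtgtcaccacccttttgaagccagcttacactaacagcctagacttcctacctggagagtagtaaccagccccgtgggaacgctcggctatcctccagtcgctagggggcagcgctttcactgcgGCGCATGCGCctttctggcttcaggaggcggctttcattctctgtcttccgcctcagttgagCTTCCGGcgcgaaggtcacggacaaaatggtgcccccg
Ndufa9: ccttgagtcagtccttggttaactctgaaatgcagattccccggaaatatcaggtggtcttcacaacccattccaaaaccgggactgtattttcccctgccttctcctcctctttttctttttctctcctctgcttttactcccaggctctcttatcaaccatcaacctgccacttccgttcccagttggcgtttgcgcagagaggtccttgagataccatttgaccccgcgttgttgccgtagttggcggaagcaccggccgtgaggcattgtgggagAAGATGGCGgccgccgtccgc

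The NRF1 letters began at -60 from the start in Cycs and at +31 in Uqcrc1. In Atp5k they began at -50, and ETS letters followed at +13. Ndufa9 held no NRF1 letters in its window and had YY1 letters at +30. The NRF1 letters stood in 11 of 59 member genes (18.6%), 6.37% of the 4587 genes with a tested probe set and a window, and 3.05% of all 27025 genes of the table. The 11 genes were Ndufa6, Ndufa8, Ndufaf4, Sdhb, Uqcr11, Uqcrc1, Cox6a1, Atp5g2, Atp5k, Atp5l and Cycs. The ETS letters stood in 27.1% of member genes, 20.3% of array genes and 9.93% of all genes, and the YY1 letters in 8.47%, 3.68% and 1.64%. The letters of the estrogen-related receptors (TCAAGGTCA) were in 1 member gene, Sdhd, 1.69% of members against 0.327% of array genes and 0.466% of all genes. SP1 letters (GGGCGG) were in 49.2% of members, 70.2% of array genes and 38.2% of all genes, and TATAAA in 10.2%, 9.9% and 15.7%. Both strands were searched for each motif, and a match is a run of letters and no more. The windows of member genes had a median GC content of 59.0%, against 61.3% for array genes and 52.7% for all genes, and CpG pairs at 0.8, 0.77 and 0.39 of the number that base content gives. The 12 tested probe sets of the genes with NRF1 letters had a median 1-hour difference of 0.26 and a median range of 0.53, and the 48 of genes with a window but without the letters had 0.10 and 0.39. The ETS letters split them the other way, with 0.14 and 0.38 for the 16 probe sets of genes with these letters and 0.21 and 0.45 for the 44 without. The extremes of the members, Uqcrc1 at -0.92 and Atp5k at 0.94, lay in opposite directions, and both genes have the NRF1 letters. Ndufa9 (-0.67), whose window was chosen by the same range, has none. A link between the letters and the measured values was not tested.

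**Figure D3:**
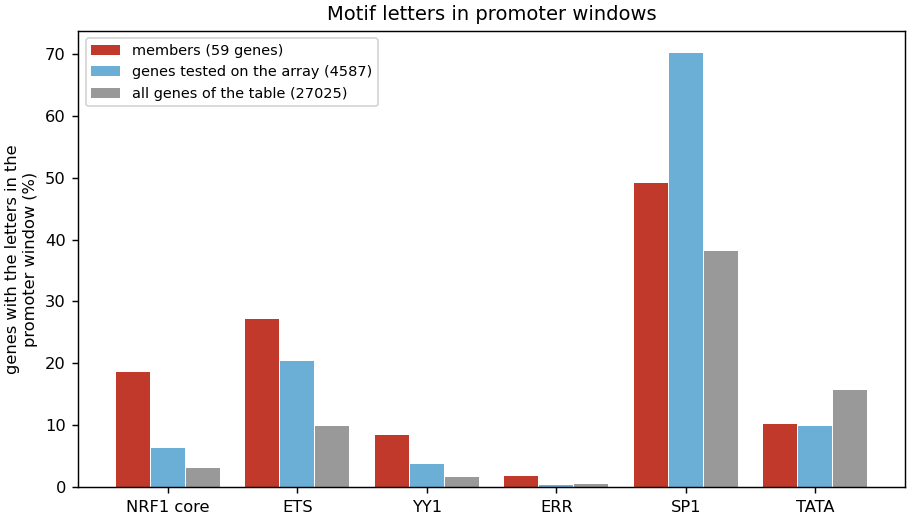
Bars give the percent of genes (y axis, from 0) whose promoter window holds the letters of each motif, for 59 member genes, 4587 genes tested on the array and 27025 genes of the table. NRF1 letters are at 18.6% in the members and 6.37% in array genes, while SP1 letters are at 49.2% and 70.2%.

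Complex I, the NADH dehydrogenase, was measured by 31 tested probe sets of 28 genes, with a median 1-hour difference of 0.20 and 23 of 31 above the mean of the others. Its core subunits carry the flavin and the iron-sulfur clusters. Ndufv1, which binds the flavin that takes electrons from NADH, had signals of 4027, 5538, 5757 and 6115. The 1-hour sample was below the other 3, which lay close together (difference -0.58, SD 0.05, limma adjusted p 0.0507). Ndufv2, an iron-sulfur partner of Ndufv1, had 4694, 3133, 3011 and 3252 on its brighter probe set, with the 1-hour sample highest (0.52, SD 0.07, limma adjusted p 0.105). Its dimmer probe set had 411, 450.1, 455 and 397 and did not follow (-0.03). Ndufs1, the large iron-sulfur subunit, had 2117, 1631, 1969 and 2014, and Ndufs3, at the ubiquinone end of the arm, had 3461, 3551, 4012 and 3538. Their 1-hour differences were 0.20 and -0.11, and neither was called. Over the 5 core probe sets the median 1-hour difference was -0.03, with 2 of 5 above the mean of the others, and over the 24 accessory probe sets it was 0.23 with 20 of 24. That difference between core and accessory subunits was not tested.

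Among accessory subunits of complex I, Ndufa9, which lies where the arms of the complex meet and binds NADPH, had the widest range. Its signals were 1386, 2595, 1481 and 2811, so the 1- and 4-hour samples were low and the 2- and 6-hour samples high. Its range over the 2-, 4- and 6-hour samples alone was 0.93. Ndufab1, the mitochondrial acyl carrier protein, had 4075, 2038, 3237 and 2426, high in the samples where Ndufa9 was low, with a range of 0.94. Ndufa2 had 1714, 1566, 2317 and 1332, highest at 4 hours. Ndufa5 and Ndufa8 were high only in the 1-hour sample, Ndufa5 with 8682, 5371, 5795 and 5653 (0.53, SD 0.03, limma adjusted p 0.0546) and Ndufa8 with 3345, 2244, 2378 and 2254 (0.54, SD 0.03, limma adjusted p 0.103). Neither passed the threshold, and the Ndufa5 probe set is of a kind marked for possible cross-hybridization. At the steady end were Ndufa10, with 573, 589.8, 542 and 572 (range 0.10), and Ndufb9, with 5184, 4792, 4452 and 4628 (range 0.14). Ndufs4, a subunit whose loss causes Leigh syndrome, was dim, with 200.1, 172, 128 and 173. Of the assembly factors, Ndufaf1 had 342, 534, 506 and 635 and lay lowest in the 1-hour sample (-0.66, SD 0.16, limma adjusted p 0.224), while Ndufaf4 had 342, 252, 334 and 234. The other accessory probe sets that were tested had ranges from 0.15 to 0.73, the widest of them Ndufb7 with 4388, 3627, 4099.6 and 2552.

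Complex II, succinate dehydrogenase, links the citric acid cycle to the chain and has no mitochondrially encoded subunit. All 4 genes had 1 probe set each, all tested, with a median 1-hour difference of 0.00. The catalytic flavoprotein Sdha had 753, 631, 471 and 697, lowest at 4 hours (range 0.70). The iron-sulfur subunit Sdhb had 5339.9, 4521, 4760.5 and 4576 (range 0.15). The membrane anchors Sdhc and Sdhd had 2442, 2839, 2617 and 2553, and 2820.2, 3321, 3234 and 3656. Both anchors were lowest in the 1-hour sample and Sdha and Sdhb highest there, by differences from -0.27 to 0.38, and none was called.

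Complex III, the cytochrome bc1 complex, held the member that passed the 1-hour fit. Uqcrc1, a core protein on the matrix side that is related to mitochondrial processing peptidases, had signals of 2078, 3631, 4247 and 3791. The 1-hour sample was well below the other 3, which differed little (difference -0.92, SD 0.10, limma adjusted p 0.0191). The call was lost with the floor at the 40th percentile (limma adjusted p 0.0714), with no filter on low values (0.0973) and without an intensity trend in the prior (0.189), and over all settings the adjusted p ran from 0.0131 to 0.189. Its partner Uqcrc2, which forms the same matrix domain, moved the other way, with 7796, 5013, 5315 and 5019 (0.54, SD 0.03, limma adjusted p 0.0558). Uqcrc2 was not called here, but its adjusted p was 0.0333 with the deposited values. The Uqcrc2 probe set is of a kind marked for possible cross-hybridization, and the Uqcrc1 probe set is not.

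The other subunits of complex III moved less. Cyc1, the cytochrome c1 that gives electrons to cytochrome c, had 14125, 8931, 12258 and 10976 on its brighter probe set (range 0.44) and 3827, 4176, 3698 and 3606 on its dimmer one (range 0.23). Uqcrb, a small subunit near the ubiquinone site, had 1879, 2004, 2544 and 2205. Uqcrq had 11001, 9389, 11576 and 10373, with a range of 0.23. Uqcrh, the acidic hinge protein that contacts cytochrome c1, Uqcr10 and Uqcr11 had ranges of 0.33, 0.34 and 0.25. The median 1-hour difference of the 9 probe sets was 0.06. Cycs, the mobile carrier between complexes III and IV, had 653, 586, 529 and 488, and its 1-hour difference of 0.33 (SD 0.13) was not called (limma adjusted p 0.495). The values descended from 1 to 6 hours, and the time fit did not call it.

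Complex IV, cytochrome c oxidase, is the complex with the most tissue isoforms among the members. It had 12 tested probe sets, a median 1-hour difference of 0.23 and 10 of 12 above the mean of the others. Cox4i1, the general isoform of the largest nuclear subunit, had 579.7, 557, 484 and 573 on one probe set and 151, 165, 163 and 217 on the other. Cox5b, a zinc-binding subunit, was the steadiest member of the complex, with 7228, 6399, 7568 and 6884 (range 0.16). Cox7b was the most variable, with 3784, 2526, 2139 and 2772, and was highest in the 1-hour sample (0.59, SD 0.21, limma adjusted p 0.167). The supercomplex factor Cox7a2l had 2339, 1791, 1688 and 1574, also highest at 1 hour (0.46, SD 0.11, limma adjusted p 0.22).

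The isoform pairs were read side by side without comparing levels. The non-muscle isoform Cox6a1 had 26341, 16628, 22568 and 19083, and the heart and muscle isoform Cox6a2 had 554, 628, 381 and 382, higher in the 1- and 2-hour samples than in the 4- and 6-hour ones. The muscle markers had summed signals of 411, 395, 676 and 443, and Ckm alone had 159, 110.2, 349 and 108. A link between these markers and Cox6a2 was not tested. Cox7a2 had 10317, 7581, 7202 and 8271, and the muscle isoform Cox7a1 had 75.6, 14, 30.5 and 36.2, below the floor in 2 samples. Cox6b1 had 278, 271, 231 and 364. Of 3 probe sets of the testis isoform Cox6b2, the brightest had 214, 99.7, 20.8 and 67.5, another had 39.7, 84.3, 50.5 and 119.7, and the last was below the floor in every sample. The first of these was below the floor at 4 hours, and all 3 fell short of the filter. Cox8a, the general isoform of the smallest subunit, had 56.9, 44.4, 47.7 and 30.7, while Cox8b, the muscle isoform, had 369.6, 379.6, 365 and 488 on one probe set and 50, 62.6, 64 and 44.9 on the other. Cox8c, the testis isoform, had 1014, 975, 703 and 1099 on one probe set and lay below the floor in every sample on the other. Both the brighter Cox8c and the dim Cox8a probe sets are unmarked for cross-hybridization, and the Cox8b probe set that passed the filter is marked. The 2 probe sets of Cox5a, which had no tested probe set, had 68.5, 36.1, 101 and 66.7, and 10.3, 45.9, 73 and 7.6. Cox6c had 16702, 12632, 11481 and 12626 on its tested probe set, while its other probe sets had 113, 41.3, 21.4 and 31.5, and 27.8, 13.9, 15.6 and 16.7.

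Complex V, the ATP synthase, had 19 tested probe sets with a median 1-hour difference of 0.14 and 14 of 19 above the mean of the others. In the catalytic head, Atp5a1, the alpha subunit, was among the steadiest members, with deposited signals of 10712, 10650.3, 10914 and 10728 (range 0.21 after normalization). Atp5c1, the gamma subunit that forms the turning shaft, had 8982, 5680.4, 5829 and 6309 on one probe set (0.50, SD 0.06, limma adjusted p 0.0739) and 4282, 3600.0, 3689.8 and 3682 on the other (0.19, limma adjusted p 0.49). Both put the 1-hour sample highest, and the brighter probe set is of a kind marked for possible cross-hybridization. Atp5e, the epsilon subunit of the shaft, had 4612, 3218, 3326 and 4647, high at 1 and 6 hours. In the stalk that holds the head, Atp5o had 4081, 3583, 3322 and 4384, Atp5j had 4493, 3436, 4191 and 3605, and Atp5pb had 240.2, 337, 279.5 and 318, lowest at 1 hour.

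The c ring, which turns as protons pass, is built from the product of several genes that encode the same mature protein. Atp5g1 had 227, 181, 196 and 292 on one probe set and 111, 118, 112 and 169.8 on the other, and both were highest at 6 hours. Atp5g2 had 875, 682, 613 and 663, highest at 1 hour, and 141, 66.8, 94.3 and 122 on a probe set below the filter. Among the small membrane subunits, Atp5k, subunit e, which helps synthases pair into dimers that bend the cristae, had the widest range of all tested members, with 650.5, 309, 343 and 399.5. Its 1-hour sample was above the other 3 (0.94, SD 0.20), but the difference was not called (limma adjusted p 0.119). Atp5l, subunit g, which acts with subunit e, had 12725, 10284, 9478 and 10595, with a 1-hour difference of 0.14 on that probe set. Atp5md had 23627, 18109.5, 18354 and 20733 and Atp5mpl 5391, 4182, 4761 and 4984, with ranges of 0.25 and 0.28. Atp5j2, subunit f, had no tested probe set, with 89.8, 79.4, 114 and 52.

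Different probe sets of a gene often disagreed. Of 21 genes with several probe sets, 9 had several tested ones. Their 1-hour differences had the same sign in 3 genes, Atp5c1, Atp5l and Ndufa3, and opposite signs in 6. Each of these 9 genes had a tested probe set of a kind marked for possible cross-hybridization. In Ndufa3 and Ndufb2 all tested probe sets were of that kind. Some of the opposite signs rest on small values, such as -0.03 (SD 0.11) in Ndufv2 and -0.04 (SD 0.13) in Cyc1. The Cyc1 value was 0.00 with the deposited values and 0.04 with arrays scaled to equal medians. In Ndufa3 they were 0.26 and 0.29, from signals of 6597, 4921, 4985 and 5823 on one and 254, 204, 227 and 211 on the other. The widest gap was in Ndufv2, from -0.03 to 0.52. Atp5d, the delta subunit of the shaft, had 4 tested probe sets whose differences ran from -0.13 to 0.37. Their signals were 1769.6, 1311, 1602 and 1220.3 on the brightest, 981, 1033, 1084 and 1181 on the next, 708, 744, 702 and 639.8 on the third, and 164, 193, 129 and 234 on the dimmest. The brightest was highest at 1 hour and lowest at 6, while the next was lowest at 1 hour and highest at 6. Ndufb2 had 9323, 7509, 8723 and 7754 on one and 6076, 6294, 7709 and 7109.8 on another, with differences of 0.09 and -0.28. The dimmer tested probe set of Atp5l had 143, 136, 89.7 and 144.

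**Figure D4:**
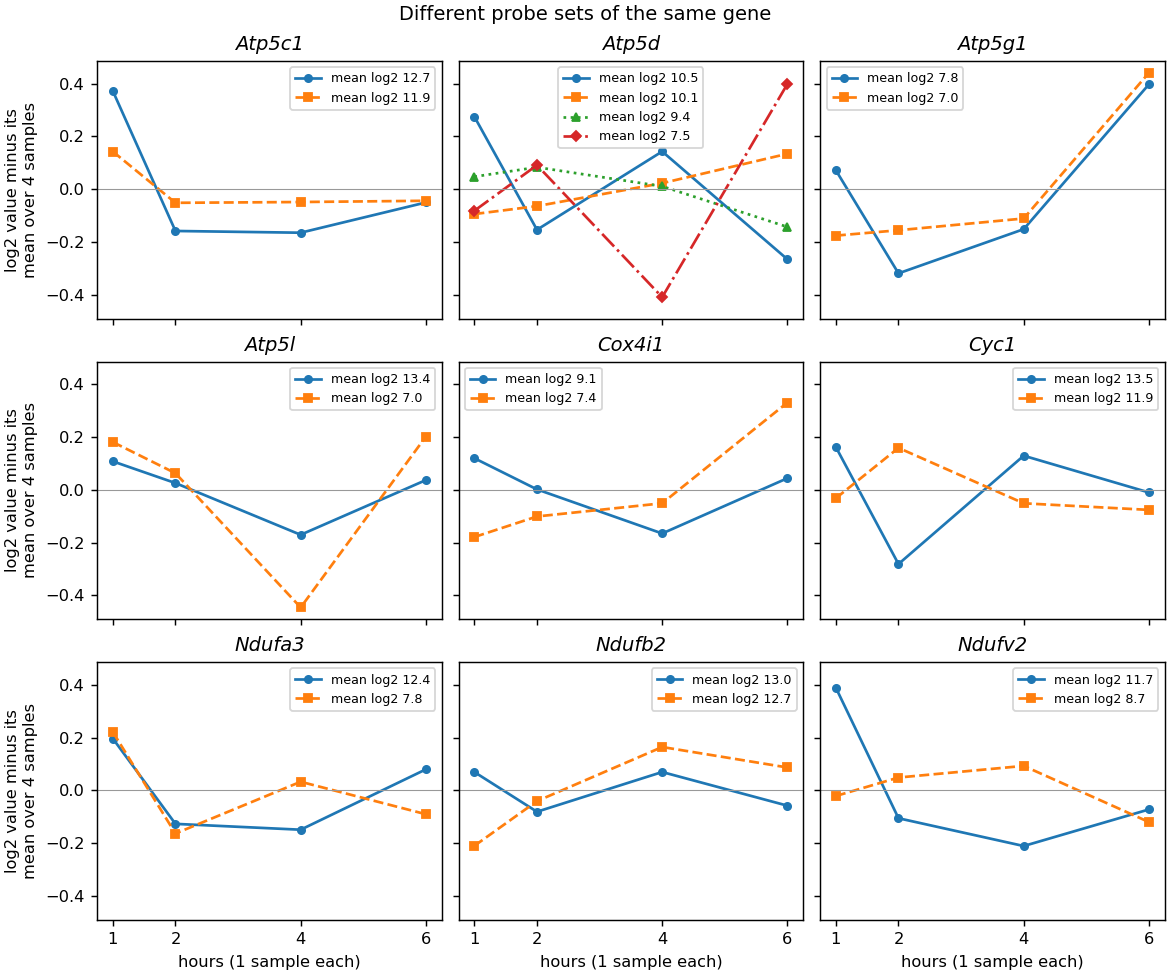
Each panel is a gene with several tested probe sets; lines give each probe set's log2 value minus its own mean over the 4 samples (y axis) against hours (x axis, 1 sample each). The lines run together in Ndufa3 and part in Ndufv2 and Atp5d. Every gene shown has a probe set marked for possible cross-hybridization, and all lines of Ndufa3 and Ndufb2 are of that kind.

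Members below the filter numbered 25 probe sets, of which 12 were of a kind marked for cross-hybridization. Of the 25, 6 lay below the floor in every sample and 14 in some. They left 8 genes without a tested probe set: Atp5j2, Cox5a, Cox6b2, Cox7a1, Cox8a, Ndufa1, Ndufa12 and Ndufc2. Ndufa1, a small membrane subunit of complex I, had 100.5, 203, 40.3 and 113 on one probe set and 15.1, 46.5, 89.4 and 48.7 on the other. Ndufa12 had 97.7, 60.3, 33.8 and 88.4, and Ndufc2 had 21.2, 105, 55.7 and 38. These values jump between samples without a shared order. The other dim probe sets belong to genes that also have a tested one. Ndufb7 had 94.9, 49.7, 6.3 and 14.1 on its dim probe set, Ndufaf1 116, 15.2, 84.1 and 46.6, and Atp5d 129, 91.9, 74 and 18.9. Ndufb6 had 53.3, 32, 8.4 and 19.6, and Ndufb10 had 44, 9.1, 20.6 and 10.6, both above the floor only in the 1-hour sample. The tested probe sets of these genes had 6351, 5199.5, 7001 and 5350.2 for Ndufb6, and 3702, 3093, 3409 and 3147 for Ndufb10. The last dim probe sets of complex I, 2 of Ndufb2 and 1 of Ndufaf4, stayed below the floor in every sample, with deposited signals of at most 25.1.

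Between the 2-, 4- and 6-hour samples the complexes leaned in different directions by small amounts. In the 4-hour sample 21 of 31 complex I probe sets lay above the mean of the 2- and 6-hour values, with a median difference of 0.12. In complex IV it was 3 of 12 with a median of -0.19, and in complex V 5 of 19 with a median of -0.12, where the background is 51.9% and the median of all tested probe sets 0.01. In the 6-hour sample 13 of 31 complex I probe sets lay above the mean of the 2- and 4-hour values (median -0.02), against 10 of 12 in complex IV (0.15) and 16 of 19 in complex V (0.15), where the background is 50.4% and the median of all 0.00. Cox7b, Cox8c, Atp5o and Atp5e were lower at 4 than at 6 hours, while Ndufab1, Ndufa2 and Ndufb7 were higher at 4 hours. Some members went against their complex: the 4-hour difference was -0.87 in Ndufa9 of complex I, and 0.28 in Cox6a1 of complex IV. With arrays scaled to equal medians the 4-hour median of complex V was -0.04. The leanings also moved with signal strength. Over the 24 members with a mean signal below 1024 the median 4-hour difference was -0.18 and the 6-hour one 0.23. All tested probe sets of that class had 0.02 and 0.00. The 25 members from 1024 to below 4096 had 0.05 and -0.04, and the 27 at 4096 or more had 0.03 and 0.02. These comparisons set single arrays against each other, were chosen after the values had been seen, and carry no test. The Gapdh ratios of these 3 samples were 1.18, 1.37 and 1.2, highest at 4 hours, and their part in the pattern was not tested.

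**Figure D5:**
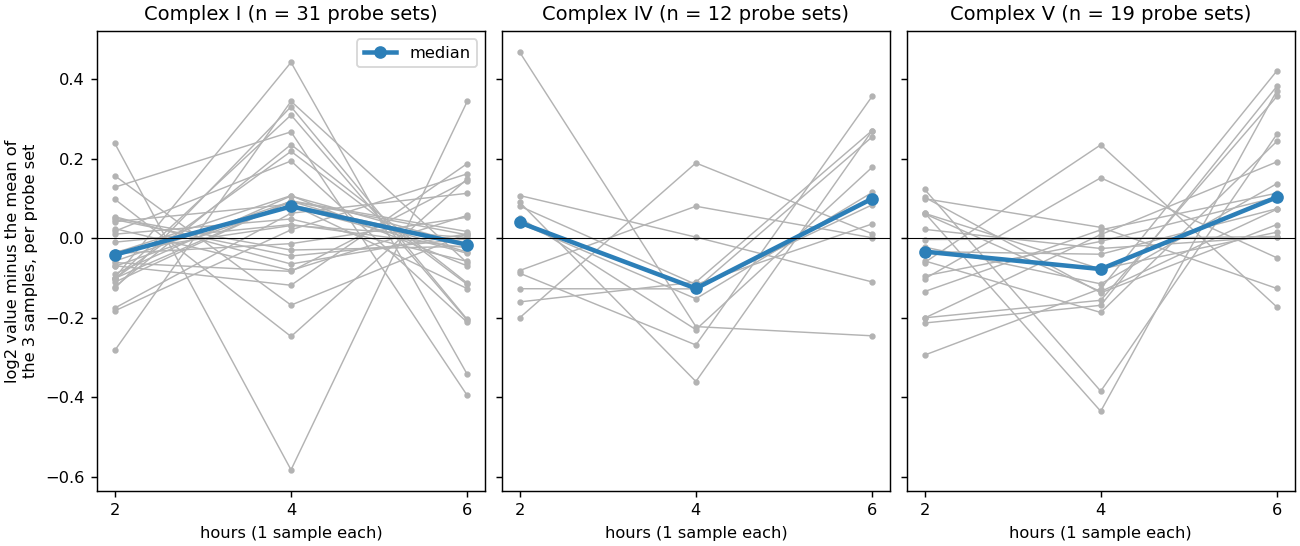
Grey lines are tested probe sets of complexes I, IV and V, given as the log2 value minus the mean of the 3 samples (y axis) against hours (x axis, 1 sample each), and the blue line is the median. The median of complex I is highest at 4 hours, while those of complexes IV and V are lowest there.

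Other genes of oxidative metabolism were counted from 4 lists, with 1 probe set a gene, the one with the highest mean. The shares over all tested probe sets given beside them count every probe set. Of 51 genes, 36 were on the array and 32 were tested, and in the 1-hour fit 0 were called higher and 3 lower, with 0 called over time. Over all tested probe sets 0.242% were called higher and 2.11% lower. The median 1-hour difference of the 32 was -0.03, with 16 of 32 above the mean of the others, against 54.7% of all tested probe sets. The called genes were Ckb, the brain creatine kinase that buffers ATP, with 6021, 11865, 17003 and 14073 (-1.31, SD 0.22, limma adjusted p 0.0113), Dlst, a subunit of the oxoglutarate dehydrogenase complex, with 350.1, 768, 691 and 825 (-1.08, SD 0.12, limma adjusted p 0.0447), and Esrra, a nuclear receptor that drives respiratory genes, with 591, 1095, 1218 and 1123 (-0.92, SD 0.08, limma adjusted p 0.0482). All 3 were low in the 1-hour sample alone, like Uqcrc1.

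The lists differed in their medians. The list drawn up for assembly and metal delivery had 4 tested genes, Surf1, Lrpprc, Cox17 and Atpif1, and not all of them are such factors. All 4 were above the mean of the others at 1 hour (median 0.48). Cox17, a copper chaperone of complex IV, had 4768, 3062, 3153 and 3012. The 7 tested regulators had a median of -0.22, with 2 of 7 above. The coactivator Ppargc1a had 121, 225, 232 and 213 (-0.88, limma adjusted p 0.262) and Gabpa, the DNA-binding part of GABP, 198, 172, 142 and 114. The 15 tested genes of pyruvate oxidation and the citric acid cycle had a median of 0.01, and Pdhb, a subunit of pyruvate dehydrogenase, was the steadiest with 2966, 2928, 2887 and 2939. The 6 tested carriers and buffering genes had a median of -0.24, and Slc25a4, an ADP/ATP carrier, had 13303, 13119.7, 14059 and 13552. No test of a list was made.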

How the data were processed

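Total RNA from 4 samples was measured on 1-colour oligonucleotide arrays. The authors deposited intensity values on a linear scale, 1 per probe set. The arrays appear to have been scaled. The mean of the deposited values of an array after trimming 2% at each end, averaged over the 4 arrays, was 500.3. Values of single arrays are not given here. The array software is not given in the sources used here. The 66 control probe sets were left out. Of 12422 others, 10833 had 1 symbol in the platform annotation, 396 several and 1193 none. Values were quantile normalized, set to a floor at the 20th percentile (signal 35.1) and put on the log2 scale from the deposited intensity. Probe sets with a mean below the 40th percentile were not tested. Fits were made with limma 3.58.1 (lmFit, eBayes with an intensity trend) in R 4.3.3 on all 7453 tested probe sets. P-values were two-sided, were adjusted by Benjamini and Hochberg over all of these with a threshold of 0.05, and measure only the spread between these samples, which may be technical. The time fit left 2 residual degrees of freedom. Probe sets with f, r, i, s or g in their suffix count as marked for cross-hybridization. Signals in every sample are given for core subunits, isoform families, the 4 widest and 2 narrowest ranges of each complex, genes with several probe sets, and probe sets below the filter, and others were added after their values were seen. For genes of the marker and metabolism lists, any probe set other than the one with the highest mean log2 value was left out. Promoter windows come from RefSeq. The members and lists were chosen with earlier results of these data known. Normalization, floor, filter, probe set choice, prior and left-out samples were varied. Python 3.11.15 with matplotlib 3.10.9 drew the figures.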

Additional observations from a re-analysis of the deposited data

Results flagged for a closer look

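In 7 of the 76 tested member probe sets (9.21%) 1 sample lay far from the other 3, by a gap over range above Dixon's critical value. The share was 6.75% over all tested probe sets, and chance gives about 1 in 20. In 4 of them the 1-hour sample was highest. They were Ndufa5 (8682), Ndufa8 (3345), Uqcrc2 (7796) and the dimmer Atp5c1 probe set (4282). In Ndufv1 the 1-hour sample was lowest (4027). The 6-hour sample was highest in the dimmer Atp5g1 probe set (169.8) and in the tested Cox8b probe set (488). In the 1-hour sample the Gapdh control ratio (3' to 5') was 4.52, and its part in the first 5 was not tested.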

How the results depend on the processing

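The members called in the 1-hour fit changed with the setting, and so did the calls over all tested probe sets. With the deposited values or arrays scaled to equal medians Uqcrc1 was again called lower. Uqcrc2, Ndufa5 and a probe set of Atp5c1 were then called higher, and the calls over all tested probe sets rose as well. The count was 5 with no filter on low values, all higher (Ndufa8, Cox7a1 and dim probe sets of Cox6c, Ndufb6 and Ndufb10), and 0 with the floor at the 40th percentile or without an intensity trend in the prior. Without the intensity trend the whole array also had 0 calls, and 9 members had an unadjusted p under 0.05. Uqcrc1 stayed called lower when the 2-, 4- or 6-hour sample was left out. Without the 4-hour sample Ndufv1 and Ndufa9 were also called lower, and Uqcrc2, Ndufab1 and Ndufa5 higher. Calls over all tested probe sets rose without the 4-hour sample and fell without the 2- or 6-hour sample. The median 1-hour difference of all members was 0.21 with the deposited values, 0.25 with equal medians, 0.19 with 1 probe set a gene, and 0.15 to 0.19 with a sample left out. With the deposited values those of complexes II, III and V were 0.04, 0.14 and 0.23, and with equal medians 0.08, 0.18 and 0.27. With the 2-, 4- or 6-hour sample left out, complex II ran from -0.02 to 0.03, complex III from 0.00 (without 4 hours) to 0.03 and complex V from 0.08 (without 4 hours) to 0.20. With no filter, 18 of 101 members spanned 1 log2 unit over 4 samples, against 3433 of all 12422 probe sets. Over the 2-, 4- and 6-hour samples it was 11 members, against 2231 of all. With a sample left out, 0 to 3 members spanned that much over the samples left, against 667 to 1032 of 7453 tested probe sets. Without the 1-hour sample it was 0 members, against 667. The time fit called 0 members under every setting that was run. Without the 2-hour sample 10 members had an unadjusted p under 0.05 in that fit, and the share over all tested probe sets was not counted. The 4- and 6-hour leanings of complexes I, IV and V kept their sign in the alternatives added after seeing the data, but the 4-hour median of complex V shrank to -0.04 with equal medians and -0.08 with the deposited values, and that of complex I to 0.08 with 1 probe set a gene or without marked ones. Over 6 settings, 413 values of named probe sets moved by less than 1 SD and 43 by more, and 21 changed sign, none of them a called value. Classes of protein length and the 1-hour results without the 1-hour sample were not run. No paired analysis was possible because the samples form 1 group. The cause of these shifts was not tested.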
